A study of Mus musculus with 32 samples.

Results

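The genes of cholesterol and fatty acid synthesis were followed in mouse embryonic stem (mES) cells driven toward primitive endoderm (PrE) by GATA6. The set held 30 genes, fixed by name, among the 54233 rows of the deposited expression table. The symbol in the table found 29 of them. Tm7sf2 was found by its identifier, ENSMUSG00000024799, because the table gives that row the symbol of the neighbouring gene Vps51. By role, 7 genes encode the early enzymes that lead to farnesyl pyrophosphate, 11 the late enzymes from squalene to cholesterol, 6 proteins that sense or carry sterols, and 6 enzymes of fatty acid synthesis.

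RNA-seq was performed on KH2 mES cells (strain C57BL/6 in the labels) that carry TRE:GATA6-DSREd2, a single copy transgene in which a TET-responsive element drives GATA6 and DsRed2 once doxycycline (Dox) is present. There were 8 time points with 4 replicates each, 32 samples in all, and every sample, 0 h included, carried the transgene. The 0 h cells were kept without Dox in 2i medium, which holds the MEK inhibitor PD0325901, the GSK3 inhibitor CHIR9902, LIF and the supplements N2 and B27. Cells at 2, 4 and 8 h were in medium with fetal bovine serum, LIF and 1 µg/mL Dox, and cells at 16, 24, 48 and 96 h had 12 h of Dox and then the same serum medium without it. Serum, loss of both inhibitors and Dox therefore began together, and in a comparison with 0 h they cannot be told apart. The line comes from 1 engineered ES line, and the study states only in general that replicates were run independently, without naming separate cultures for these samples, so that p-values measure the spread between these samples, which may in part be technical.

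Cells make cholesterol from acetyl-CoA through the mevalonate pathway, in which Hmgcs1 acts early and squalene is the first molecule committed to sterols. The genes of this pathway are known as targets of SREBP2 (Srebf2), and those of fatty acid synthesis as targets of SREBP1 (Srebf1) and of LXR. SREBPs are held in the endoplasmic reticulum with SCAP by the INSIG proteins when sterols are plentiful, and reach the nucleus when sterols run low. Many SREBP sites sit beside boxes bound by NF-Y.

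The samples held between 3190108 and 12301732 reads on genes, with a median of 8870662.5. Expression is given as the normalized count, that is, reads divided by the size factor the authors used for the sample. All 30 genes were among the 15227 tested with limma. A gene is said to rise or fall where its Benjamini-Hochberg adjusted p (FDR) was below 0.1, and the change is the difference in log2(normalized count + 1). Summed counts of 7 ES cell markers went from 28216 to 29924 at 0 h down to 3346 to 4011 at 96 h, and those of 7 PrE markers from 628 to 897 up to 198735 to 274994, with none of them at 0. Of 5 markers each, those of fibroblasts summed to at most 236 in any sample, those of trophoblast to 158 to 754, and those of mesoderm and neural cells to between 0 and 459. Bulk values cannot separate fewer cells expressing a gene from less RNA per cell. Replicates 1 and 2 stood apart from replicates 3 and 4: the split between these pairs took a median of 85.1% of the variance of the 30 genes within time points, against 64.8% over all tested genes. The pair means were taken separately at each time point. Part of either share would therefore arise without any difference between the pairs, and neither share shows that a difference lasts over time. The labels name no batch. Results were therefore also fitted on the means of the 2 pairs, as 2 samples per time point. That value is given where it changes a count by more than 1.5 times. Of the 159 calls of single genes against 0 h it ended 38, and only some of these are named.

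Promoters are shown first because the genes of both pathways are known as targets of SREBPs. RefSeq promoter sequences on GRCm38.p6, running from 250 bases before to 50 bases after a start, were at hand for 24 of the 30 genes, with 32 starts among them (all but Fdps, Fdft1, Sqle, Stard4, Scd1 and Scd2). The sterol regulatory element core TCACNCCAC, searched on both strands, was in 1 of the 24, Hmgcs1, and in 1.44% of all 27025 genes with a promoter (1.24% of all 32851 promoters). A shorter core without the last base, TCACNCCA, which was tried after the first search, was in 3 of the 24 and in 4.97% of all genes with a promoter. Those 3 are printed 5′ to 3′ on the strand of the gene, 28 bases each, with the shorter core in capitals:
Hmgcs1: cgtcaccgtcTCACCCCActtcccaggt
Msmo1: ctcactattcTCACTCCAtccgcgcagc
Srebf2: tgacgcaccaTCACCCCAtgagccgctt

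The Hmgcs1 window lies at chr13:119690204-119690231 on the plus strand, with 129 bases between the core and the start. That of Msmo1 lies at chr8:64733738-64733765 on the minus strand, 169 bases before the RefSeq start, and GENCODE M21 places it in the untranslated first exon of an Msmo1 transcript that begins further upstream. The Srebf2 window is at chr15:82147097-82147124 on the plus strand, 154 bases before the start, and neither it nor the Hmgcs1 window falls in a GENCODE gene. The NF-Y box CCAAT, on either strand, was in a promoter of 20 of the 24 genes, against 41.1% of all genes with a promoter, with 4 copies in Hmgcs1, 3 in Msmo1 and 1 in Srebf2. These matches describe letters within 300 bases of a start, and binding was not measured here.

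Expression of the set fell within hours, came back in part, and fell again at the end of the course. The 30 genes together took 0.758% ± 0.0552 (SD, n = 4) of the reads on genes before Dox, against 0.522% ± 0.0104 after 2 h and 0.383% ± 0.00778 after 4 h. The share then read 0.480% ± 0.0322 (8 h), 0.491% ± 0.0274 (16 h), 0.616% ± 0.0490 (24 h) and 0.632% ± 0.103 (48 h), and was lowest, 0.315% ± 0.00471, after 96 h. The 4 samples at 4 h (0.374 to 0.392%) and the 4 at 96 h (0.309 to 0.320%) lay below every sample of the other time points, and those at 96 h below those at 4 h. A share also depends on the other genes. With counts scaled to total reads, the median change of all tested genes against 0 h was -0.05 at 4 h and -0.29 at 96 h. The order of 4 h and 96 h therefore applies to the share and not to summed normalized counts. At 48 h the pairs were far apart, with 0.715 and 0.728% in replicates 1 and 2 and 0.541 and 0.543% in replicates 3 and 4. The fatty acid enzymes supplied most of the reads, 0.487% ± 0.0624 of the 0.758% at 0 h.

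**Figure D1:**
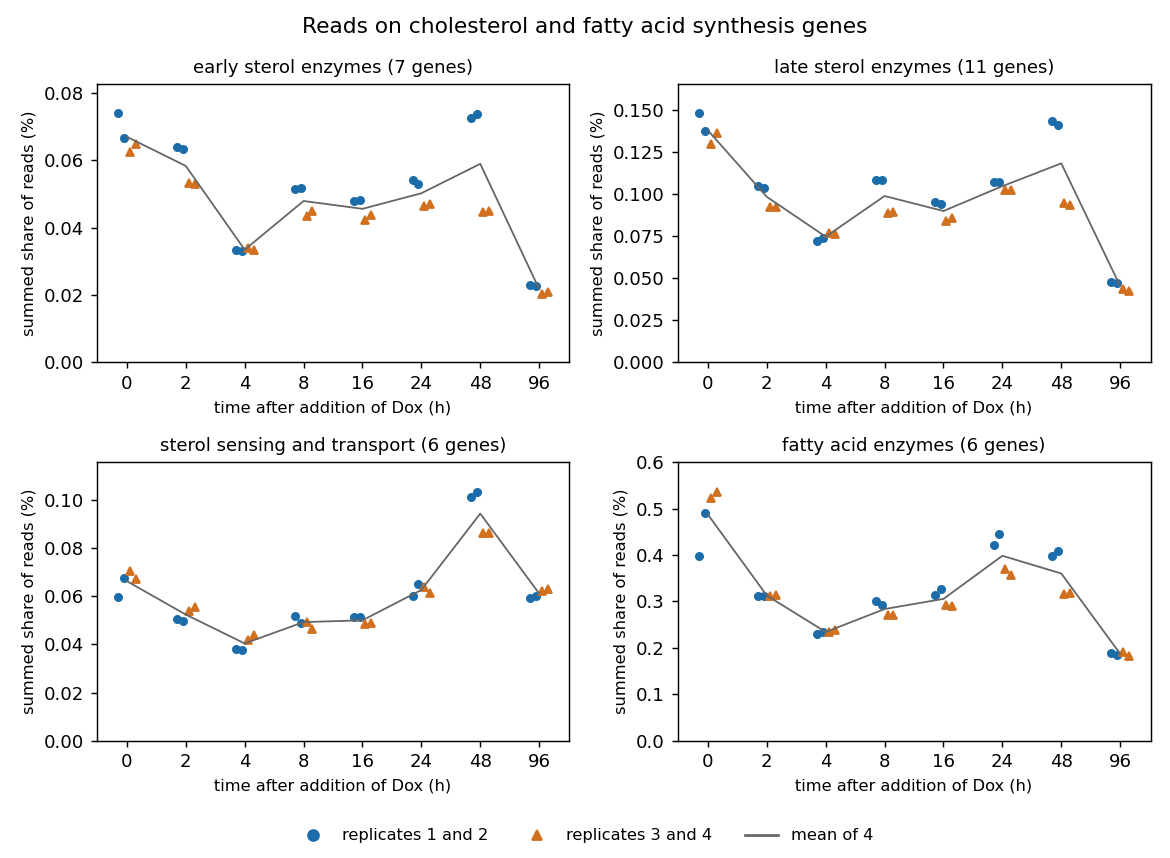
Summed share of the reads on genes (%, linear axes from 0) taken by the early sterol enzymes, the late sterol enzymes, the genes of sterol sensing and transport and the fatty acid enzymes at each of the 8 time points (h, evenly spaced). Points are samples, with replicates 1 and 2 as circles and 3 and 4 as triangles, and the line joins the means of 4: the 3 groups of enzymes are lowest at 4 h among the times up to 48 h and lower still at 96 h (0.0218%, 0.0452% and 0.187%), whereas sterol sensing and transport is highest at 48 h (0.0943%).

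Up to 48 h, a minimum at 4 h was the commonest course. Over the times from 0 to 48 h, 21 of the 30 genes (70.0%) had their lowest mean at 4 h, against 9.77% of all tested genes. Over the whole course 13 were lowest at 4 h and 14 at 96 h, where 8.33% and 26.4% of all tested genes were lowest. The highest mean was at 0 h for 16 of the 30 and at 48 h for 6, against 19.3% and 15.4% of all tested genes.

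Against 0 h, 17 of the 30 genes fell and 1 rose at 2 h, where 22.6% of all tested genes fell and 22.2% rose. The median change of the 30 was -0.30, against -0.03 over all tested genes. At 4 h 25 fell and 1 rose (23.8% and 24.7% of all genes), with a median of -0.80 against -0.01, and 11 fell at least 2-fold where 5.12% of all genes did. In 24 of the 30 every sample at 4 h was below every sample at 0 h, which held for 15.9% of all genes. No gene of the set fell 4-fold at 4 h, where 0.709% of all genes did. With the 2 pairs as samples, 11 in place of 17 fell at 2 h and none rose at either time. Over all tested genes the same averaging took the falls at 2 h from 3448 to 1714.

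The counts stayed of this kind through 16 h. At 8 h 21 fell and 1 rose (22.8% and 26.3% of all genes, median of the 30 -0.45), and at 16 h 22 fell and 1 rose (25.3% and 28.0%, median -0.51). At 24 h 18 fell and 3 rose (30.7% and 31.2%, median -0.32). With the pairs averaged, 15, 15 and 14 fell at 8, 16 and 24 h. Over all tested genes the same averaging took the falls from 3469 to 2027 at 8 h and from 3850 to 2509 at 16 h. The risers at 8 and 16 h, Elovl6 (0.38) and Stard4 (0.22), were not called once the pairs were averaged, when the count at 24 h was 1 in place of 3. By 48 h the directions were mixed, with 11 lower and 9 higher (37.3% and 36.1% of all genes, median -0.11). Scaled to total reads in place of the size factors, 17 were lower and 8 higher at 48 h, and averaging the pairs left 7 lower. That scaling moved the median of all genes at 48 h from -0.02 to -0.16 and that of the 30 from -0.11 to -0.24. The gap between the 30 and all genes was -0.09 with it and -0.08 with the size factors.

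At 96 h 24 of the 30 fell and 5 rose (38.5% and 38.0% of all genes), with a median of -0.94 against -0.03 over all genes. In 23 genes all samples at 96 h were below those at 0 h (32.1% of all genes). A fall of at least 4-fold was found for 7 of the 30, namely Tm7sf2, Idi1, Msmo1, Fdft1, Fdps, Sqle and Scd1, and for 10.3% of all genes. Scaling to total reads moved the median of all genes to -0.29 and that of the 30 to -1.20, and 3 in place of 5 were higher. The 30 stood 0.91 below all genes either way. That gap could hardly change, because scaling moves all genes of a sample alike. The 7 comparisons share the 0 h samples and are not independent of each other.

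**Figure D2:**
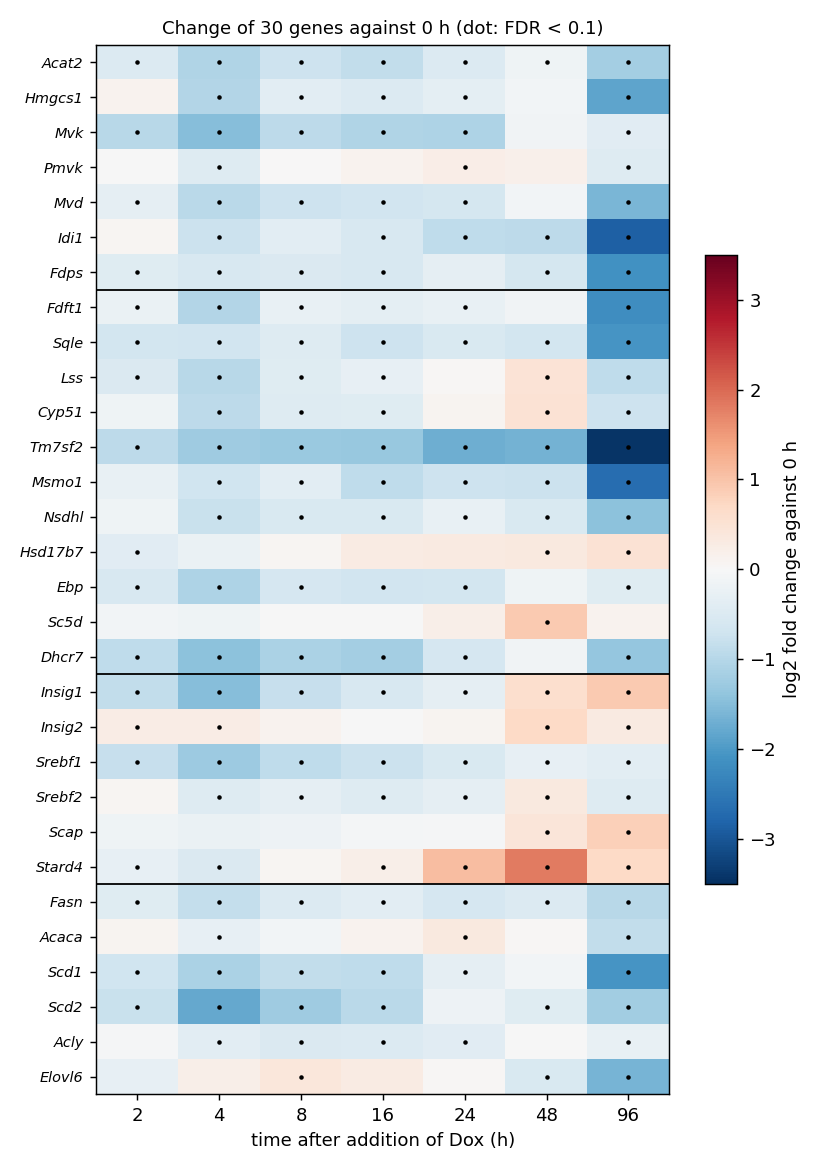
Log2 fold change of each of the 30 genes against 0 h at the 7 later time points (h), from blue (lower than 0 h) to red (higher), with a dot where FDR was below 0.1. Horizontal lines part, from the top, early sterol enzymes, late sterol enzymes, sterol sensing and transport, and fatty acid enzymes; the 4 h and 96 h columns are mostly blue, and red at 96 h is found in Insig1, Scap, Stard4, Hsd17b7 and Insig2.

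Neighbouring time points from 2 h on were all in serum medium, with Dox up to 12 h. Between them, 22 genes fell and 1 rose from 2 to 4 h (10.9% and 13.6% of all genes), and 10 of the falls were left with the pairs averaged. The shares of all genes called with averaged pairs are not given for these steps. From 4 to 8 h, still under Dox, 14 rose and none fell by limma at FDR below 0.1 (9.51% and 7.57%), where 1 was lower at an unadjusted p under 0.05 and limma-voom on the recovered reads also called no fall. Of these rises, 4 were left with averaged pairs. From 8 to 16 h, the step that includes the withdrawal of Dox, Msmo1 alone was called, with a change of -0.52 (10.6% of all genes fell and 9.44% rose). Averaging the pairs ended this call, limma-voom called 2 falls, and so did leaving out 8 h replicate 3 or 4 or 16 h replicate 1 or 2, while leaving out 8 h replicate 1 gave 2 rises. From 16 to 24 h 8 rose and none fell (13.3% and 14.8%), again with 1 lower at an unadjusted p under 0.05 and no fall by limma-voom, and 4 of the rises were left with averaged pairs. From 24 to 48 h 14 rose and 3 fell (29.8% and 27.8%), with none of the 3 falls left once the pairs were averaged, and from 48 to 96 h 26 fell and 2 rose (27.2% and 27.3%), 15 of them by at least 2-fold (9.88% of all genes). The last step also held the only 4-fold fall between neighbours, that of Fdft1 (2.4% of all genes), with a change of -2.32 within replicates 1 and 2 and -1.76 within replicates 3 and 4. Leaving out 48 h replicate 1 or 2 left no gene past 4-fold, leaving out 96 h replicate 1 left 2, and leaving out 48 h replicate 3 or 4 left 4, as did scaling to total reads. From 24 to 48 h, leaving out 48 h replicate 2 gave 5 falls in place of 3.

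All 7 early sterol enzymes fell at 4 h and again at 96 h (23.8% and 38.5% of all genes), by a median of 0.95 and 1.59 on the log2 scale. With averaged pairs the 4 h calls of Idi1 and Fdps were lost. Hmgcs1 joins acetoacetyl-CoA and acetyl-CoA to HMG-CoA, the substrate from which mevalonate is made. Its normalized counts were 2698, 2406, 2193 and 2331 at 0 h, and 1199, 1144, 1188 and 1168 at 4 h. All samples at 4 h were below all at 0 h, with replicates spread far less than at 0 h, and the change was -1.03 (SE 0.17, adjusted p = 1e-05). At 2 h, in contrast, the 4 counts were 3060, 3055, 2216 and 2275, with replicates 1 and 2 above every 0 h sample, replicates 3 and 4 within the 0 h range, and no call (0.13, adjusted p = 0.59). At 48 h the pairs parted again, with 3058 and 3124 against 1584 and 1659.5, whereas at 96 h all 4 samples, at 775, 738, 592 and 572, were below every earlier sample (-1.85, SE 0.17, adjusted p = 2.9e-11). Its neighbouring gene on the other strand, Gm48342, covers 12.1% of its exon bases.

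Acat2, which makes the acetoacetyl-CoA that Hmgcs1 uses, was at 443 ± 23.0 at 4 h and 408 ± 25.2 at 96 h, from 927 ± 113 at 0 h (SD, n = 4). Both falls (-1.06 and -1.18) had no overlap between samples. Its fall of 0.14 at 48 h was called at an adjusted p of 0.094, and leaving out 0 h replicate 1 or 2 or 48 h replicate 3 or 4 ended the call (adjusted p from 0.14 to 0.44). Mvk, mevalonate kinase, had the deepest fall of the group at 2 h, when 4 of the 7 fell (22.6% of all genes). Its counts of 381, 307, 337 and 351 at 0 h were 161, 174, 178 and 181 at 2 h. Every 2 h sample was far below every 0 h sample (-0.98, SE 0.10, adjusted p = 7.7e-09). At 4 h it was at 35.6% of its 0 h mean, at 48 h at 93.3%, and at 96 h at 75.6% (-0.40, adjusted p = 0.0011), so that it was 1 of the genes whose lowest point was at 4 h and not at 96 h.

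Mvd, which decarboxylates mevalonate pyrophosphate, was at 51.6% of 0 h at 4 h, at 95.4% at 48 h and at 32.9% at 96 h (-1.59, SE 0.10, adjusted p = 3e-15). Pmvk, phosphomevalonate kinase, changed least in the group at 4 h, to 72.7% of 0 h (-0.46), and was at 73.4% at 96 h (-0.44), with no call at 2, 8, 16 and 48 h, although leaving out 0 h replicate 1 or 48 h replicate 3 or 4 brought a rise at 48 h past the threshold (0.25 to 0.29, adjusted p from 0.024 to 0.063). Its rise at 24 h (0.22, adjusted p = 0.093) was lost when any of 0 h replicates 2, 3 or 4 or 24 h replicates 1 or 2 was left out, with adjusted p from 0.14 to 0.31.

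Idi1, which makes dimethylallyl pyrophosphate, and Fdps, which builds farnesyl pyrophosphate from it, had the lowest counts of the early enzymes. Idi1 was counted at 141, 135, 103 and 100.1 at 0 h and at 15.9, 15.8, 17.6 and 13.2 at 96 h, a level of 13.1% of 0 h (-2.85, SE 0.25, adjusted p = 2.1e-11). All its 96 h samples were below every earlier sample, whose lowest was 43.1 at 48 h. Fdps stood at 177, 153, 144 and 185 at 0 h and 44.6, 40.0, 38.9 and 26.5 at 96 h (-2.12, SE 0.20, adjusted p = 5.9e-11). Before 96 h its falls were small beside its spread: at 2 h (-0.42, adjusted p = 0.093) leaving out any of 6 single libraries ended the call (0 h replicate 1, 2 or 4, or 2 h replicate 1, 3 or 4), and at 8 h (-0.50) 0 h replicate 4 or 8 h replicate 4 did. Idi1 at 16 h (-0.56, adjusted p = 0.073) was likewise lost without 0 h replicate 1 or 2 or 16 h replicate 3 or 4. With averaged pairs, neither gene was called at 4 h (adjusted p = 0.18 and 0.17). For Fdps 26.7% of the exon bases are shared with Gm43738 on the same strand, so that its reads may have been split.

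Of the 11 late sterol enzymes 9 fell at 4 h and 9 fell at 96 h (23.8% and 38.5% of all genes), with medians of -0.92 and -1.35. Fdft1, squalene synthase, commits farnesyl pyrophosphate to sterols. Its counts were 1727, 1429, 1689 and 1569.5 at 0 h, then 729.5, 709.9, 864 and 865 at 4 h (-1.02, SE 0.10, adjusted p = 1.8e-09). From 8 to 24 h it was at 79.1 to 84.0% of 0 h, and at 48 h the pairs read 1828 and 1769 against 1248 and 1151. At 96 h it was at 385, 336, 345 and 361, without overlap with any other time (-2.16, SE 0.10, adjusted p = 4.6e-18). Ctsb on the other strand covers 18.3% of its exon bases, and the strand setting of the counting is not stated.

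Sqle, squalene epoxidase, a rate-limiting step of the pathway, did not come back between the early fall and the end. It was at 1925, 1813, 1655 and 1753 at 0 h and already at 1307, 1238, 980.1 and 1071 at 2 h (-0.64, SE 0.12, adjusted p = 4.4e-05). Its means stayed between 60.7% and 73.2% of 0 h from 2 to 48 h, with every sample of those times below the 0 h samples, and reached 23.8% at 96 h (-2.08, SE 0.12, adjusted p = 3e-16). Msmo1, a C4-methyl sterol oxidase, followed a like course, with 61.5% of its starting level left by 4 h, 54.1% by 16 h, 62.1% by 48 h and 15.8% by 96 h. Its 0 h counts of 2152, 1847, 1758 and 1798 were 320.5, 316, 289 and 271 at 96 h (-2.65, SE 0.15, adjusted p = 9.2e-16). Leaving out 0 h replicate 1 or 8 h replicate 3 or 4 ended its call at 8 h (-0.37, adjusted p 0.15 in each case).

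Tm7sf2, a sterol C14 reductase, had the deepest fall of the set at 96 h. Its counts were 338, 325, 341 and 312 at 0 h and 138, 171, 199 and 192 at 2 h (-0.92, SE 0.17, adjusted p = 5.9e-05). Means of 139, 133 and 131 followed at 4, 8 and 16 h, then 101 at 24 h and 108 at 48 h. At 96 h the samples stood at 26.5, 38.9, 23.8 and 30.3, that is, at 9.09% of 0 h (-3.44, SE 0.17, adjusted p = 1.3e-17). Samples at 0 h did not overlap with those of any later time. Of its exon bases 12.1% are shared with Vps51 on the same strand, the gene whose symbol the table gives it.

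Lss, lanosterol synthase, and Cyp51, the lanosterol demethylase, had a different course: down at 4 h, above 0 h at 48 h, and down again. Lss went from 838, 863, 750 and 797 at 0 h to 411, 465, 392 and 393 at 4 h (-0.97, SE 0.10, adjusted p = 7.7e-09). It stood at 1317, 1347, 935 and 1016 at 48 h, all above 0 h (0.49, SE 0.10, adjusted p = 0.00011), and at 434 ± 22.5 at 96 h (-0.90). Cyp51 was at 52.2% of 0 h at 4 h (-0.92, SE 0.16) and at 60.4% at 96 h (-0.71). Its 48 h counts of 2378, 2188, 1467 and 1484 overlapped with those at 0 h (1533, 1427, 1134 and 1107), but within either pair they were the higher (0.62 and 0.40).

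Of the remaining late enzymes, Dhcr7, which reduces 7-dehydrocholesterol in the last step, had the deepest fall of the late enzymes at 4 h. Its counts of 658, 673, 551 and 646 at 0 h were 222, 223, 234 and 247 at 4 h (-1.44, SE 0.12, adjusted p = 2.1e-11), with all 4 h samples under every 0 h sample. It was at 93.6% of 0 h at 48 h and at 39.1% at 96 h (-1.35, SE 0.12). Ebp, a sterol isomerase, was at 47.1% of 0 h at 4 h (-1.07) and at 73.9% at 96 h (-0.42), and Nsdhl, a sterol dehydrogenase, at 58.6% (-0.77) and 36.5% (-1.45).

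Sc5d and Hsd17b7 did not follow the group. Sc5d, the lathosterol oxidase, was not called at any time from 2 to 24 h, with changes from -0.14 to 0.20, except that a rise at 24 h was called without 0 h replicate 1 or 24 h replicate 3 (0.26 and 0.27, adjusted p = 0.096 and 0.074). At 48 h its counts were 831, 882, 596 and 636, all above the 426, 409.7, 321 and 382 of 0 h (0.92, SE 0.12, adjusted p = 7.7e-08), and at 96 h it was not called (0.12, adjusted p = 0.36). Hsd17b7, a 3-ketosteroid reductase of the pathway, was lower at 2 h (-0.40, adjusted p = 0.043) and higher at 96 h, with 242, 225, 246 and 245 against 149, 173, 176 and 181 at 0 h (0.50, SE 0.16, adjusted p = 0.0054). Scaled to total reads, the 96 h change was 0.23 and was not called. Its rise at 48 h (0.34) was lost without 0 h replicate 1 or 48 h replicate 3 or 4 (adjusted p from 0.14 to 0.32), and with the pairs averaged neither it nor the fall at 2 h was called.

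**Figure D3:**
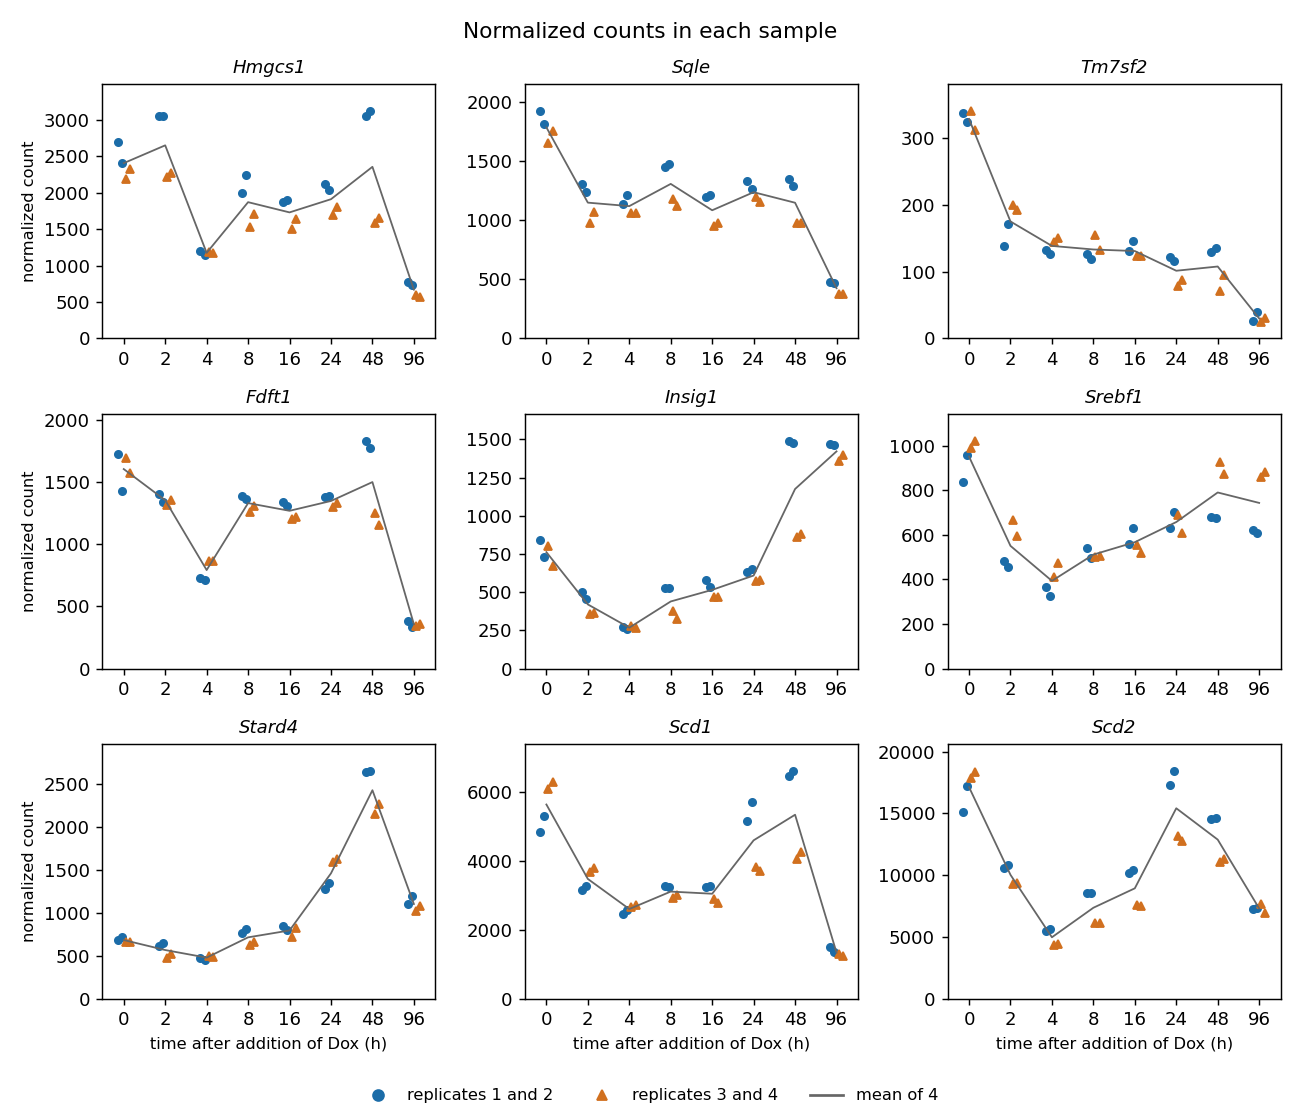
Normalized counts (linear axes from 0) of 9 genes in each of the 32 samples by time after addition of Dox (h, evenly spaced), with replicates 1 and 2 as circles, 3 and 4 as triangles, and a line through the means of 4. Hmgcs1, Fdft1 and Scd1 come back after 4 h and end low, Sqle and Tm7sf2 stay below 0 h throughout, Stard4 peaks at 48 h (2431), and Insig1 ends above 0 h (1421 against 762).

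Among the 6 genes of sterol sensing and transport, 4 fell at 4 h (23.8% of all genes), whereas at 96 h 4 rose and 2 fell (38.0% and 38.5%). Insig1, a retention factor for SCAP and itself an SREBP target, moved with the enzymes early and against them late. It was counted at 841, 731, 801 and 674 before Dox, 504, 458, 355 and 362 after 2 h, and 269, 257, 279 and 266 after 4 h. All 4 h samples were lower than any at 2 h, and these in turn lower than any at 0 h (4 h against 0 h -1.50, SE 0.15, adjusted p = 3.8e-09). Its later means were 57.7% (8 h), 67.6% (16 h) and 79.9% (24 h) of its starting level. At 48 h its counts were 1488 and 1475 in replicates 1 and 2 and 858 and 878 in replicates 3 and 4, all above 0 h (0.58, adjusted p = 0.0015). At 96 h they were 1469, 1459.8, 1359 and 1396 (0.90, SE 0.15, adjusted p = 5.6e-06), when the fall of most enzymes was deepest. The call at 24 h (-0.32, adjusted p = 0.079) was lost without 0 h replicate 1 or 3 or 24 h replicate 3 or 4 (adjusted p from 0.14 to 0.18).

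Insig2, the second such factor, had no early fall. It was at 215, 216, 187 and 147 at 0 h and at 226, 242, 217 and 217 at 4 h, a rise of 0.25 (SE 0.10, adjusted p = 0.040) that was not called without 0 h replicate 4 (0.13, adjusted p = 0.26) or 4 h replicate 2 (0.22, adjusted p = 0.11), with limma-voom (adjusted p = 0.11) or with averaged pairs. The same held for its rise at 2 h without 0 h replicate 4 (0.14, adjusted p = 0.25) or 2 h replicate 4 (0.22, adjusted p = 0.12). At 48 h it stood at 321, 334, 259.5 and 324, all above 0 h (0.70, SE 0.10, adjusted p = 2.7e-07). At 96 h the rise was 0.32 (adjusted p = 0.0043), and 0.06 with no call when scaled to total reads.

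The SREBP genes differed. Srebf1 was at 836, 957, 989 and 1019.9 at 0 h and 366, 327, 409 and 472 at 4 h (-1.28, SE 0.13, adjusted p = 2.4e-09), with a gap between the groups. It then climbed to 83.1% of 0 h at 48 h and was at 78.2% at 96 h (-0.37, adjusted p = 0.011), where its samples overlapped with those at 0 h and averaging the pairs ended the call (adjusted p = 0.11). The fall at 48 h (-0.28, adjusted p = 0.056) was lost without 0 h replicate 3 or 4 or 48 h replicate 1 or 2. Srebf2 was not changed at 2 h by the test (0.07, adjusted p = 0.54), and its 4 h counts of 1419.5, 1442, 1625 and 1707 were below the 1764, 2205, 2312 and 2259 of 0 h (-0.46, SE 0.08, adjusted p = 4.7e-05). At 48 h all 4 samples, 2677, 2828, 2694 and 2647, were above 0 h (0.35, SE 0.08, adjusted p = 0.00044), and at 96 h the change was -0.44 (adjusted p = 2.6e-05).

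Scap, the escort of the SREBPs, had no called change up to 24 h, with differences from -0.22 to -0.05. At 96 h its counts of 409.6, 367, 459 and 460.5 were all above the 236, 233, 267 and 221 of 0 h (0.82, SE 0.13, adjusted p = 1.6e-06). The rise at 48 h (0.43) differed between the pairs, with 0.11 in replicates 1 and 2 and 0.74 in replicates 3 and 4. The gene 5830462I19Rik on the other strand covers 13.2% of its exon bases.

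Stard4, a soluble carrier that moves sterols between membranes, had the largest rise of the set. It was at 690.1, 725, 667 and 659 at 0 h and 471, 458, 499 and 493 at 4 h (-0.51, SE 0.10, adjusted p = 7.6e-05). At 24 h its counts were 1282, 1352, 1590 and 1628 (1.09, SE 0.10, adjusted p = 5.9e-11), and at 48 h 2649, 2651, 2159.6 and 2266 (1.82, SE 0.10, adjusted p = 1.6e-16), both well above all earlier samples. At 96 h it was at 1105 ± 76.0, still above 0 h (0.69, SE 0.10, adjusted p = 2e-07). Its call at 2 h (-0.28) was lost without 2 h replicate 3 (-0.20, adjusted p = 0.11), and the small rise at 16 h (0.22) without 0 h replicate 3 or 4 or 16 h replicate 1, 2 or 4.

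The fatty acid enzymes fell in 5 of 6 cases at 4 h and in all 6 at 96 h (23.8% and 38.5% of all genes), with medians of -0.60 and -1.10. Scd2, a stearoyl-CoA desaturase that makes oleate, was the most abundant gene of the set per kilobase of exon, at 3134 ± 260 normalized counts per kb at 0 h, followed by its paralogue Scd1 (1153 ± 138) and by Acly (1004 ± 93.1). Its counts were 15101, 17246, 17833 and 18324 at 0 h and 5467, 5628, 4352 and 4470.0 at 4 h, at 29.1% of 0 h and with no overlap (-1.79, SE 0.13, adjusted p = 5.8e-12), the deepest fall of the set at that time. It was back at 17297, 18401, 13165 and 12800.3 at 24 h, where replicate 1 was within the 0 h range, replicate 2 just above it and replicates 3 and 4 below it, and its change of -0.17 was not called (adjusted p = 0.30). At 96 h it stood at 7304, 7360.3, 7653 and 6941 (-1.22, SE 0.13, adjusted p = 2e-09).

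Scd1 shared the early fall but ended lower. It was at 4850.1, 5318, 6088 and 6301 at 0 h, 2457, 2573, 2665 and 2728 at 4 h (-1.11, SE 0.13, adjusted p = 7.1e-08) and 1492, 1352, 1295 and 1231 at 96 h (-2.07, SE 0.13, adjusted p = 1.1e-14), with no overlap between any pair of these groups. At 48 h replicates 1 and 2 read 6457 and 6601 and replicates 3 and 4 read 4053 and 4257, so that against 0 h the change was 0.36 in the first pair and -0.58 in the second. Its call at 24 h (-0.31) was lost without 0 h replicate 3 or 4 or 24 h replicate 3 or 4, with adjusted p from 0.12 to 0.20. Scd1 and Scd2 are close in sequence, and how reads that match both were counted is not stated.

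Fasn, fatty acid synthase, was counted at 3369, 5493, 5883 and 6008 at 0 h, with replicate 1 far below the rest, and at 2932, 2949, 2569 and 2994 at 4 h (-0.82, SE 0.17, adjusted p = 0.00027). At 96 h it was at 2288, 2069, 3093 and 3030.3, below every 0 h sample (-0.97, SE 0.17, adjusted p = 9.6e-06). Between these times its samples overlapped with 0 h at 2, 8, 16, 24 and 48 h. The calls at 2 h (-0.41) and 16 h (-0.38) were lost without 0 h replicate 2, 3 or 4, that at 16 h also without 16 h replicate 1 or 2. Acaca, acetyl-CoA carboxylase, was lower at 4 h (-0.30, adjusted p = 0.058) and higher at 24 h (0.35, adjusted p = 0.018, but 0.11 with averaged pairs), and was at 322, 248, 276 and 247 at 96 h against 414, 598, 494 and 495 at 0 h (-0.87, SE 0.13, adjusted p = 3.8e-07). Its fall at 4 h was lost without 0 h replicate 2 or 4 h replicate 3 or 4 (adjusted p from 0.17 to 0.22).

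Acly, which supplies cytosolic acetyl-CoA to both pathways, had the narrowest range of the set, 1.42-fold between its highest and lowest mean. It was at 5301 ± 492 at 0 h and 3723 ± 120 at 8 h (-0.51, SE 0.06, adjusted p = 1e-08), at 98.8% of 0 h at 48 h and at 83.8% at 96 h (-0.25, adjusted p = 0.00019). Elovl6, which lengthens palmitate to stearate, had no called fall before 48 h with all samples, but its change at 2 h (-0.29) was called without 0 h replicate 1 or 2 h replicate 3 or 4 (-0.39 to -0.38, adjusted p from 0.069 to 0.087). Its counts were 2204, 2387, 3193 and 3137 at 0 h and 2957, 3030.3, 4071 and 4185 at 8 h, with the pairs apart at both times and a rise of 0.38 within either pair (adjusted p = 0.054 over the 4). This call was lost without 0 h replicate 1 or 2 or 8 h replicate 3 or 4, with adjusted p from 0.14 to 0.19. At 96 h all 4 samples, at 928, 920.3, 821 and 805, were below every other sample (-1.64, SE 0.16, adjusted p = 1.7e-10).

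The order of the levels changed with these courses. Per kilobase of exon at 0 h, Acaca (29.3 ± 4.41), Scap (32.1 ± 2.62), Hsd17b7 (33.3 ± 2.79), Idi1 (34.1 ± 5.99) and Fdps (39.1 ± 4.58) were lowest and lay within or close to the spread of their neighbours in this order. At 96 h Idi1 (4.46 ± 0.511), Tm7sf2 (6.79 ± 1.49) and Fdps (8.91 ± 1.84) formed the lower end. Insig1, at 246 ± 23.9 per kb at 0 h behind 15 other genes, came at 96 h, with 459 ± 16.9, directly behind Scd2 (1339 ± 53.5) and Acly (842 ± 8.04).

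**Figure D4:**
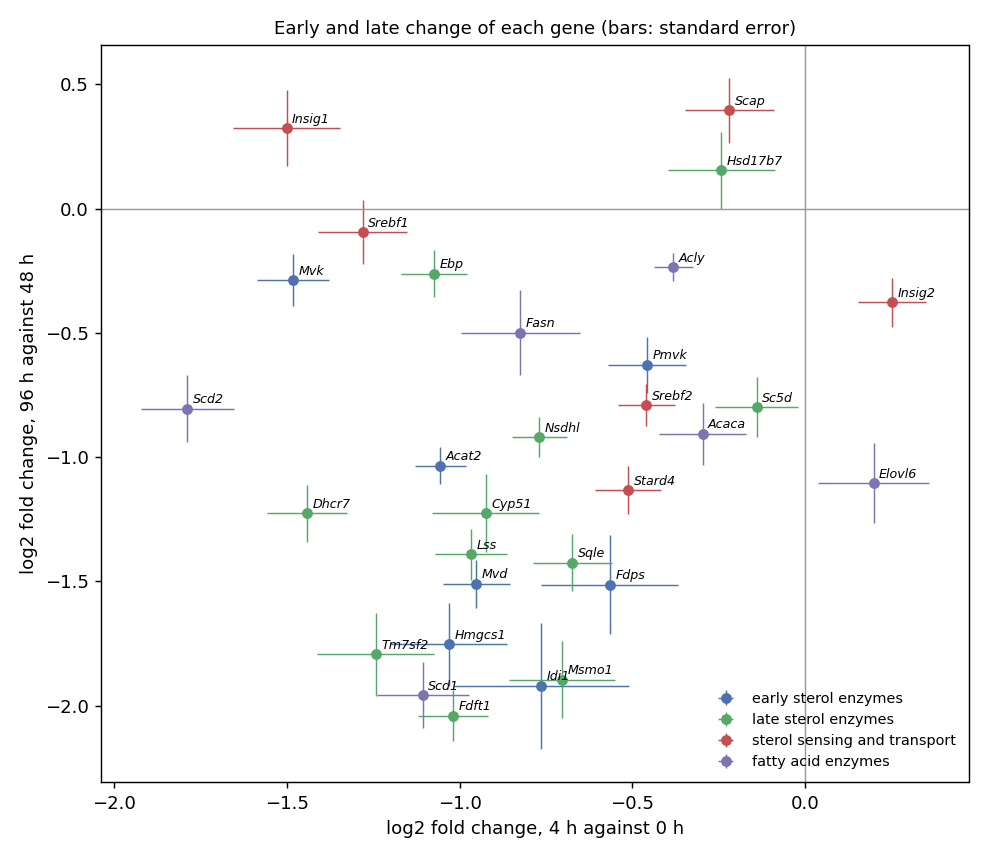
Log2 fold change of each of the 30 genes at 4 h against 0 h (horizontal axis) and at 96 h against 48 h (vertical axis), comparisons that share no sample, with the standard error as bars and the role as colour. Most genes lie at the lower left, low in both; Insig1 is low early (-1.50) and not late (0.32), Elovl6 the reverse (0.20 and -1.10), and Scap and Hsd17b7 lie near or above 0 in the late comparison (0.40 and 0.15).

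The early and the last fall differed in which genes they reached most. From 48 to 96 h, in samples that the 4 h comparison did not use, the changes of Fdft1 (-2.04), Scd1 (-1.96), Idi1 (-1.92), Msmo1 (-1.90), Tm7sf2 (-1.79) and Hmgcs1 (-1.75) were the deepest. Mvk, with -1.48 at 4 h, changed by only -0.29 from 48 to 96 h, and averaging the pairs ended that call (adjusted p = 0.16). Srebf1 was not called from 48 to 96 h (-0.09, adjusted p = 0.57). Insig1 went on rising by the test on 4 samples (0.32, adjusted p = 0.084), but within replicates 1 and 2 the change was -0.02 and with averaged pairs it was not called, and the rise of Scap (0.40, adjusted p = 0.013) was likewise not called with averaged pairs. The difference between the early and the late change was not tested for any gene.

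At 48 h the pairs of replicates differed in sign for several genes. Within replicates 1 and 2, Hmgcs1, Fdft1 and Scd1 were higher at 48 h than at 0 h (0.28, 0.20 and 0.36), and within replicates 3 and 4 they were lower (-0.48, -0.44 and -0.58). Over the course Idi1 (-0.50), Hmgcs1 (-0.35) and Cyp51 (-0.32) were lower in replicates 3 and 4, and Fasn (0.27), Elovl6 (0.26) and Scap (0.25) were higher. At 48 h the PrE markers also covered a wide range, a summed count of 105095 to 193108 per sample, and the part of that spread in these values was not tested.

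**Figure D5:**
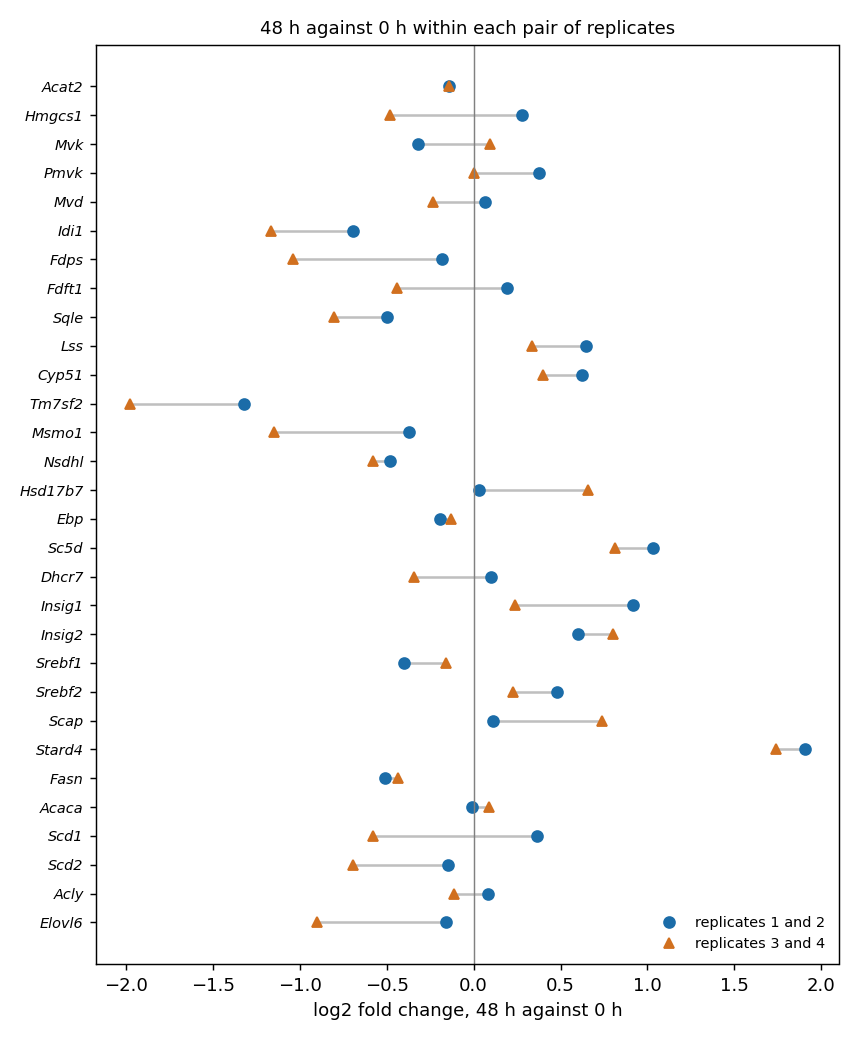
Log2 fold change of each gene at 48 h against 0 h within replicates 1 and 2 (circles) and within replicates 3 and 4 (triangles), joined by a grey bar, with a vertical line at 0. Hmgcs1, Fdft1, Scd1, Mvd, Dhcr7 and Acly lie above 0 in the first pair and below it in the second, Mvk and Acaca lie the other way round, and Stard4 and Sc5d are above 0 in both.

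Other genes around these pathways, taken from lists written down with earlier results known, are given beside them. Of 12 genes of SREBP processing and INSIG turnover none fell at 4 h by limma or limma-voom, with 0 lower at an unadjusted p under 0.05, and 6 rose (median 0.19), or 3 with averaged pairs. At 96 h 8 rose and 4 fell (median 0.38), with changes from -1.23 to 2.57. Of all genes tested, 24.7% rose and 23.8% fell at 4 h, and 38.0% and 38.5% at 96 h. In the isoprenoid branch, which uses farnesyl pyrophosphate for prenylation, dolichol and ubiquinone, 4 of 11 genes rose and 4 fell at 4 h (median -0.14), and 7 rose and 3 fell at 96 h (median 0.52).

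Among 19 tested genes of other fatty acid synthesis, elongation and desaturation, 9 fell and 4 rose at 4 h (median -0.15), and 12 fell and 5 rose at 96 h (median -0.56), beside falls of 23.8% and 38.5% and rises of 24.7% and 38.0% over all genes. Past 4-fold at 96 h were the falls of Fads2, a desaturase of polyunsaturated fatty acids (-4.54, SE 0.19, adjusted p = 2.3e-19), of Acacb, the mitochondrial acetyl-CoA carboxylase (-3.39, SE 0.32), and of Mid1ip1, which activates that enzyme family (-2.30, SE 0.22). Fads2 went from a mean of 906 at 0 h to 38.6. The rises past 4-fold were those of Elovl1, an elongase of very long chains (2.78, SE 0.11), and of Me1, a source of NADPH (2.73, SE 0.17), with means of 145 and 483 at 0 h and 995 and 3162 at 96 h. Earlier in the course, the highest change against 0 h in this list was 5.30 at 4 h, 9.34 at 8 h and 7.36 at 16 h.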

How the data were processed

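Poly(A) RNA of 32 samples was sequenced with the TruSeq Stranded kit. Per the methods and labels, the authors ran cutadapt 2.7, then HISAT2 2.1.0 on GRCm38.p6, then featureCounts (Subread 1.6.4) for reads per gene, and the deposited values are log2 values from the variance stabilizing transformation of DESeq2. How strand and multi-mapped reads were set in the counting is not given in the sources used here. The deposited log2 values, whose floor was 1.58 in every column, were inverted to normalized counts, which came out as whole reads for 100% of values (tolerance 1e-06). Of the 54233 rows, 29140 have no symbol.

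The 15227 genes that reached 10 normalized counts in 4 or more samples were fitted with limma 3.58.1 (R 4.3.3) on log2(normalized count + 1), all 32 samples in 1 model with time as the factor and a trended variance. A pseudocount of 1 understates changes of low genes. Tests were two-sided, with Benjamini-Hochberg adjustment over all tested genes and FDR below 0.1. Changes of 4-fold were counted apart. The fit was tested on simulated data. The 30 genes, the other lists and the markers were chosen with earlier results of these data known. All 30 were named. Of the other lists, only some of the genes past 4-fold were named, where 5 or fewer of a list passed it. Exon overlaps are from GENCODE M21, a later release than the one the authors counted on. Alternatives covered the scaling, filter, pseudocount, test, block, pairs of replicates and single libraries. Tables were handled in Python 3.11.15 with pandas 2.3.3 and numpy 2.4.6.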

Additional observations from a re-analysis of the deposited data

Results flagged for a closer look

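In 6 of the 240 groups of 4 samples tested, 1 sample lay far from the other 3 by Dixon's criterion (the gap as a share of the range of the group). For 4 independent samples from a normal distribution, chance gives about 1 in 20 groups, here 12. The samples form 2 unlike pairs, so that 12 is not the number to expect here. Low samples were Cyp51 at 96 h, replicate 4, with a normalized count of 712 against 804 to 818, Insig2 at 48 h, replicate 3, with 259 against 321 to 334, Fasn at 4 h, replicate 3, with 2569 against 2932 to 2994, and Acaca at 24 h, replicate 3, with 589 against 646 to 656. High samples were Scap at 4 h, replicate 4, with 236 against 191 to 198, and Acaca at 16 h, replicate 2, with 657 against 499 to 510.1.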

How the results depend on the processing

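Of 210 changes of single genes against 0 h, 159 were called, 22 of these were lost and 11 others gained without some single library. Precision is limited by 4 replicates in 2 unlike pairs. The cause of no shift given here was tested.

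Averaging the pairs gave 0 higher and 11 lower at 2 h, 0 higher at 4, 8 and 16 h, 1 higher at 24 h and 7 lower at 48 h, all against 0 h. Between neighbours it gave 0 higher and 10 lower at 4 h, 4 higher at 8 h, 0 lower at 16 h, 4 higher at 24 h, 0 lower at 48 h and 0 higher at 96 h. Over all tested genes it gave 2033 higher and 1714 lower for 2 h, 2365 and 1933 for 4 h, 2566 and 2027 for 8 h, and 2509 lower for 16 h.

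Scaling to total reads gave 0 higher at 2, 8 and 16 h, 17 lower at 48 h and 3 higher at 96 h against 0 h, and from 48 to 96 h 1 higher and 4 lower by 4-fold. TMM factors, FDR below 0.05 and no filter each gave 1 higher from 48 to 96 h, FDR below 0.05 gave 0 higher at 8 and 16 h, and no filter 0 higher at 16 h. With only the 2 time points in the fit, 0 were higher at 2 and 4 h and 3 at 16 h against 0 h, and between neighbours 0 were higher at 4 h, 2 lower at 16 h, 2 lower at 24 h and 1 higher at 96 h. Limma-voom gave 0 higher at 4 h and 2 lower from 8 to 16 h. A pseudocount of 5, a mean count of at least 50 and the deposited log2 values each gave 1 lower from 16 to 24 h.

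The shares of all genes called within a single pair are not given, so the counts in this paragraph have no background beside them. Replicates 1 and 2 alone gave 0 higher (4 h), 3 (8 h), 3 (16 h) and 5 (24 h), and 4 lower by 4-fold at 96 h. Between neighbours they gave 25 higher at 8 h, 1 higher and 5 lower at 16 h, 4 lower at 24 h and 6 lower by 4-fold at 96 h. Replicates 3 and 4 alone gave 2 higher and 1 lower by 4-fold at 4 h, then 3 (8 h), 4 (16 h) and 7 higher (24 h), and 17 lower at 48 h. Between neighbours they gave 2 higher at 4 h, 1 lower at 8 h, 8 higher and 4 lower at 16 h, 16 higher and 2 lower at 24 h, 9 lower at 48 h, and 1 higher and 0 lower by 4-fold at 96 h. Changes against 0 h that turned in sign, and were called either in all 4 samples or in the pair alone, were, in replicates 3 and 4, Elovl6 at 24 h (-0.14) and, in replicates 1 and 2, Scd2 (0.14) and Scd1 (0.10) at 24 h and Hmgcs1 (0.28), Fdft1 (0.20) and Scd1 (0.36) at 48 h, none of them called in all 4 except Scd1 at 24 h.

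The replicate numbers do not establish pairs across times. Deviations of same-numbered samples correlated by a mean of 0.196 (lowest -0.043), as did those of the other number of the same pair (0.196), against -0.196 across pairs, and 15 of 32 samples correlated best with their own number. Because deviations were taken from the mean of each time point, the value across pairs follows largely from those within pairs. The replicate block gave 3 higher at 16 h and 5 at 24 h against 0 h, and between neighbours 1 lower at 8 h, 1 higher and 2 lower at 16 h, 1 lower at 24 h and 5 lower at 48 h. The pair of replicates as a term gave 3 and 5, and between neighbours 1 lower at 8 h, 2 higher and 2 lower at 16 h, 1 lower at 24 h and 5 lower at 48 h.

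Leaving out single libraries gave 0 to 1 higher at 2, 4, 8 and 16 h and 6 to 7 lower by 4-fold at 96 h against 0 h. Between neighbours it gave 0 to 1 higher at 4 h, 0 to 2 higher and 1 to 2 lower at 16 h, 0 to 1 lower at 24 h, 3 to 5 lower at 48 h, and 1 to 2 higher and 0 to 4 lower by 4-fold at 96 h.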

Other observations

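Of 12 tested genes of sterol transport, storage and efflux, 2 rose and 6 fell at 4 h (median -0.39), and 7 rose and 5 fell at 96 h (median 0.96), where over all genes 24.7% rose and 23.8% fell at 4 h, and 38.0% rose and 38.5% fell at 96 h. Soat1, which esterifies cholesterol for storage, rose already at 4 h, from a mean of 80.9 to 289 normalized counts (1.82, SE 0.08, limma with Benjamini-Hochberg adjusted p = 4.7e-18), and reached 4095 at 96 h (5.65, SE 0.08). Lipa, the lysosomal lipase that frees cholesterol from esters, went from 12.9 to 393 (4.87, SE 0.24), and Abca1, a cholesterol exporter, from 95.7 to 1027 (3.63, SE 0.31). Cyp27a1, a sterol hydroxylase, rose from 4.58 to 24.3 (2.20, SE 0.56), all low counts. Abcg1, another exporter, fell from 167 to 53.6 at 4 h (-1.62, SE 0.20) and to 26.6 at 96 h (-2.61, SE 0.20).

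Of 16 genes of fatty acid oxidation 1 rose and 6 fell at 4 h (median -0.16), beside 24.7% and 23.8% of all genes. At 96 h 8 rose and 6 fell (median 0.04), beside 38.0% and 38.5%. Cpt1a, which brings long-chain fatty acids into mitochondria, was the gene of this list past 4-fold at both times, from 923 at 0 h to 202 at 4 h (-2.17, SE 0.28, limma with Benjamini-Hochberg adjusted p = 2.8e-07) and 95.0 at 96 h (-3.17, SE 0.28).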
